A study of Mus musculus with 2 samples.

Results

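Chemokines are small secreted proteins that draw cells along a gradient, and interleukins are secreted signals that act on cells carrying the matching receptor. CC and CXC chemokines are told apart by the spacing of their first conserved cysteines and act through receptors coupled to inhibitory G proteins. Interleukin receptors signal mostly through JAK kinases and STAT factors, while the receptors of the IL-1 family signal through MYD88 and NF-kB. Fibroblasts and macrophages are known sources of many of these ligands, whereas mouse embryonic stem cells are maintained by a relative of IL-6, leukaemia inhibitory factor (LIF).

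Chemokines, interleukins and their receptors were chosen by gene name alone, and 143 of the 24061 rows of the count table matched. Of these, 63 had at least 20 counts summed over both libraries and were measured, out of 14213 genes measured in all. The names Il4i1, an enzyme, and Il1bos, a transcript antisense to Il1b, match the pattern without being ligands or receptors, and neither was measured. The threshold of 20 counts fell between Ccr4, with 9 counts in the Pc4-OE-labelled library and 11 in the control-labelled one, and Ppbp, with 15 and 1 counts, and Il17b, with 5 and 11 counts.

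Poly(A) RNA came from C57BL/6 mouse embryonic stem cells, grown with 20% serum replacement and 1000 U/ml LIF on mouse embryonic fibroblast feeder cells, which both groups share. The Pc4-OE library, made at passages 24 to 37, is labelled as overexpressing Pc4, a single-stranded DNA-binding transcriptional coactivator encoded by Sub1, and its cells were made with a lentivirus that also carries Venus, a yellow fluorescent protein. The control library was made at passages 17 to 23, and whether it had received a virus is not given in the sources used here, so passage, virus and label cannot be told apart. The study made 3 overexpressing lines from picked colonies. Which of them gave the library, and whether feeder cells were removed before RNA was taken, is not given in the sources used here.

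There was 1 library per group, with 10194783 counts for Pc4-OE and 10571463 for control, and so no replicate check and no p-value. Levels are in CPM, the count scaled to library size after TMM scaling, a correction for composition from edgeR. The libraries so labelled are written below as Pc4-OE and control. Intervals are 95% exact binomial intervals of the ratio and cover counting error only. Sub1 itself stood at 235 CPM in the library labelled Pc4-OE and at 530 CPM in the library labelled control, 2.26-fold lower, against the label. Every direction below is therefore that of the labels. Whether the labels were exchanged was not tested, and an exchange would turn every direction round.

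Most measured members were higher in the Pc4-OE-labelled library. The 2-fold rule asked for a ratio of Pc4-OE over control of 2 or more in either direction and an interval that leaves out 1. Of the 63 measured members, 35 were at least 2-fold higher, a share of 55.6%, beside 11.8% of all genes measured. Only Il20rb was at least 2-fold lower, beside 4.02% of all genes, and 27 members met the rule in neither direction. A ratio above 1 was seen for 51 of the 63, beside 49.3% of all genes. The median log2 ratio of the measured members was 1.36, against -0.01 over all genes. Summed over the members, the level was 1870 CPM in the Pc4-OE-labelled library and 747 CPM in the control-labelled library, a ratio of 2.50. Of the 37 members with at least 100 counts, 24 were higher and 0 were lower, and their median was 1.51, against 9.41% higher and a median of -0.05 for all genes in that range. Of the 26 members with 20 to 99 counts, 11 were higher, beside 22.4% of all genes in that range, and the median was 0.79, against 0.27.

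Markers of fibroblasts and macrophages were higher in the same library. All 17 macrophage markers in the table had a ratio above 1 and 16 were at least 2-fold higher, with a median log2 ratio of 2.33 and summed levels of 659 CPM in Pc4-OE and 233 CPM in control. Laptm5 was the exception, with a log2 ratio of 0.26. All 14 embryonic fibroblast markers had a ratio above 1 and 11 met the rule, with a median of 1.15 and summed levels of 9696 and 4315 CPM. None of the 10 stem cell markers met the rule, with a median of -0.13 and summed levels of 4842 CPM in Pc4-OE and 6130 CPM in control. No marker of these 3 lists was at 0. Of all 63 measured members, 17 had a ratio above that of every fibroblast marker, the highest of which was 3.92. Ccl8 passed that marker, Pdgfra, only narrowly (3.922 against 3.916). A ratio above the median macrophage marker was seen for 13 of the 63. The shares of all genes above these ratios were not worked out, so neither count can be called particular to the members. The part of feeder cells and macrophages in the results was not tested, and in bulk RNA fewer cells of a type and less RNA per cell cannot be told apart.

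**Figure D1:**
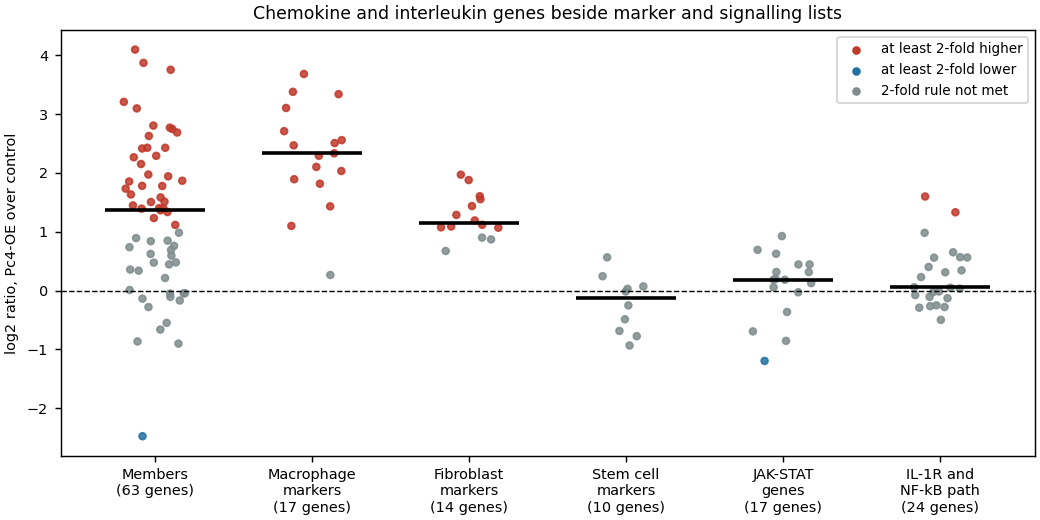
Log2 ratios of Pc4-OE over control for the 63 measured members and for 5 lists of markers or signalling genes, 1 point per gene, with black bars at each median and a dashed line at the median of all genes. The members (median 1.36) lie between the macrophage markers (2.33) and the fibroblast markers (1.15), while the JAK-STAT list (0.19) and the IL-1 receptor and NF-kB list (0.05) lie near the median of all genes.

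Markers of other blood and vessel cells were mixed. Of 9 mast cell and basophil markers, 7 were at 0 in both libraries, among them Cpa3 and Fcer1a, and the basophil protease Mcpt8 was 2.38-fold higher, with 137 counts in Pc4-OE and 58 in control. Hdc, the other measured marker of these 9, went the other way without meeting the rule, with 12 counts in Pc4-OE and 19 in control. The neutrophil list summed to 3.67 CPM in Pc4-OE and 1.15 CPM in control, and the only measured gene of its 7, S100a8, had 29 and 5 counts. Of 8 platelet markers, Itga2b and Gp1ba were measured without meeting the rule (80 and 28 counts in Pc4-OE, 52 and 24 in control), and Gp6 was at 0 in both. That list, which holds the members Pf4 and Ppbp (15 counts in Pc4-OE and 1 in control, not measured), summed to 30.7 CPM in Pc4-OE and 8.84 CPM in control, and the mast cell list to 14.4 and 7.39 CPM. The T cell list, which holds the member Il7r, summed to 33.8 CPM in Pc4-OE and 54.5 CPM in control, most of it Lck (270 and 500 counts), with Cd3g at 0, and the B cell list to 2.80 and 6.53 CPM, with Cd79a and Cd79b lower and Ms4a1 at 0. The endothelial list summed to 66.1 CPM in Pc4-OE and 83.4 CPM in control, most of it Pecam1 (476 and 640 counts), with Esam lower and Emcn at 0. Of its 5 measured genes 3 had a ratio above 1, namely Tek, Tie1 and Cdh5, but 0 met the rule upward. The median log2 ratio of the endothelial list was 0.13.

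CC chemokine ligands had the highest summed CPM of any group of the family. The files list 24, of which 12 were measured. The rule was met upward by 7, beside 11.8% of all genes, and downward by 0, beside 4.02%. The median log2 ratio was 1.57. Ccl11, or eotaxin, which attracts eosinophils, had 3697 counts (357 CPM) in the Pc4-OE-labelled library and 1029 counts (98.8 CPM) in the control-labelled one, 3.61-fold higher (interval 3.37 to 3.88). Ccl7, a monocyte attractant, had 1452 counts (140 CPM) in Pc4-OE and 471 counts (45.2 CPM) in control, 3.10-fold higher (2.79 to 3.45). Ccl8 had 690 counts (66.7 CPM) in Pc4-OE and 177 counts (17.0 CPM) in control, 3.92-fold higher (3.32 to 4.65). Their neighbour Ccl2, the main ligand of the monocyte receptor CCR2, did not meet the rule. It had 1657 counts (160 CPM) in Pc4-OE and 985 counts (94.6 CPM) in control, 1.69-fold higher (1.56 to 1.83), an interval that lies wholly below those of Ccl7, Ccl8 and Ccl11. Ccl12 had 49 counts in Pc4-OE and 39 in control, with a log2 ratio of 0.34 (-0.30 to 0.98).

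These 5 genes form a run with Ccl1 on chromosome 11, at 82035577 to 82179812 (GRCm38.p6), and Ccl1 was at 0 in both libraries. Ccl2, Ccl7, Ccl8 and Ccl11 together made up 38.7% of the summed CPM of the measured members in Pc4-OE and 34.2% in control. Per kilobase of exon, Ccl11 was the most abundant member in Pc4-OE, at 330 CPM per kilobase, followed by Ccl2 at 197, Ccl7 at 175 and Ccl8 at 130. In control the order began with Ccl2 at 116 CPM per kilobase, then Ccl11 at 91.3, Ccl7 at 56.5 and Ccl8 at 33.3. Per kilobase, Ccl11 and Ccl2 thus stood in opposite order in the 2 libraries, while by CPM Ccl11 stood above Ccl2 in both. There are no replicates to give a spread for either order.

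A second run of CC genes on chromosome 11, at 83525778 to 83664683, was higher in 4 of its 5 genes, beside 11.8% of all genes. Ccl6, a chemokine of mouse myeloid cells, had 393 counts (38.0 CPM) in Pc4-OE and 58 counts (5.57 CPM) in control, 6.82-fold higher (5.16 to 9.14). Ccl9, another mouse myeloid chemokine, had 209 counts (20.2 CPM) in Pc4-OE and 43 counts (4.13 CPM) in control, 4.89-fold higher (3.51 to 6.96). Ccl5, or RANTES, had 43 counts (4.15 CPM) in Pc4-OE and 9 counts (0.864 CPM) in control, 4.81-fold higher (2.31 to 11.2). Ccl3, or MIP-1 alpha, an inflammatory ligand, had 158 counts (15.3 CPM) in Pc4-OE and 56 counts (5.38 CPM) in control, 2.84-fold higher (2.08 to 3.92). Ccl4, its close relative, had 29 and 21 counts, a log2 ratio of 0.47 (-0.39 to 1.36). The annotated spans of Ccl3 and Ccl4 overlap and the sequences are alike, so reads of one may have been lost or given to the other. Over all genes on chromosome 11 the median log2 ratio was 0.00.

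Ccl25 and Ccl27a, made mainly by epithelia, did not meet the rule either. Ccl25, the thymus and gut ligand, had 32 counts in Pc4-OE and 51 in control, a log2 ratio of -0.66 (-1.35 to 0.00). Ccl27a, a skin chemokine with near-identical copies, had 31 counts in each. The homeostatic lymph node ligands Ccl19 and Ccl21a were at 0 in both libraries.

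CXC ligands split by gene. Of 16 CXC and CX3C ligands 12 were measured. The rule was met upward by 7, beside 11.8% of all genes, and downward by 0, beside 4.02%. The median log2 ratio was 1.36, and 4 of the remaining 5 had ratios just below 1. Pf4, platelet factor 4, which is also found in macrophages, had 189 counts (18.3 CPM) in Pc4-OE and 13 counts (1.25 CPM) in control, 14.6-fold higher (8.35 to 28.0). Among the neutrophil attractants, Cxcl3 had 101 counts (9.76 CPM) in Pc4-OE and 11 counts (1.06 CPM) in control, 9.24-fold higher (4.95 to 19.1). Cxcl2 had 106 counts (10.2 CPM) in Pc4-OE and 20 counts (1.92 CPM) in control, 5.33-fold higher (3.29 to 9.08). Cxcl1, the most abundant of these attractants in Pc4-OE, had 554 counts (53.5 CPM) there and 186 counts (17.9 CPM) in control, 3.00-fold higher (2.53 to 3.56). Cxcl5, a further ligand for neutrophils, found at one end of the same run, had 308 counts (29.8 CPM) in Pc4-OE and 320 counts (30.7 CPM) in control. Its log2 ratio of -0.05 has an interval of -0.28 to 0.18, which lies below those of its 4 measured neighbours.

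The interferon-inducible ligands, which attract activated T cells, also had ratios near 1. Cxcl9 had 93 counts in Pc4-OE and 103 in control, a log2 ratio of -0.14 (-0.56 to 0.28). Cxcl10 had 70 and 73 counts, a log2 ratio of -0.05 (-0.55 to 0.44). Cxcl11 had 25 and 26 counts, a log2 ratio of -0.05 (-0.90 to 0.80), an interval wide enough to hold a change of over 1.5-fold. Both CXC runs lie on chromosome 5, at 90759298 to 90905938 and at 92321331 to 92363296, where the 896 measured genes had a median log2 ratio of -0.30, against -0.01 over the whole table.

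The remaining CXC ligands lie elsewhere. Cxcl12, the stromal ligand that retains blood stem cells, had 540 counts (52.2 CPM) in Pc4-OE and 207 counts (19.9 CPM) in control, 2.62-fold higher (2.23 to 3.10). Cxcl16, a membrane-bound ligand, had 193 counts (18.6 CPM) in Pc4-OE and 77 counts (7.39 CPM) in control, 2.52-fold higher (1.93 to 3.33). Cxcl14 had 34 and 12 counts, 2.85-fold higher (1.44 to 6.05). Cx3cl1, or fractalkine, the other membrane-bound ligand, had 128 counts (12.4 CPM) in Pc4-OE and 72 counts (6.91 CPM) in control, a log2 ratio of 0.84 (0.41 to 1.28) that did not meet the rule.

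**Figure D2:**
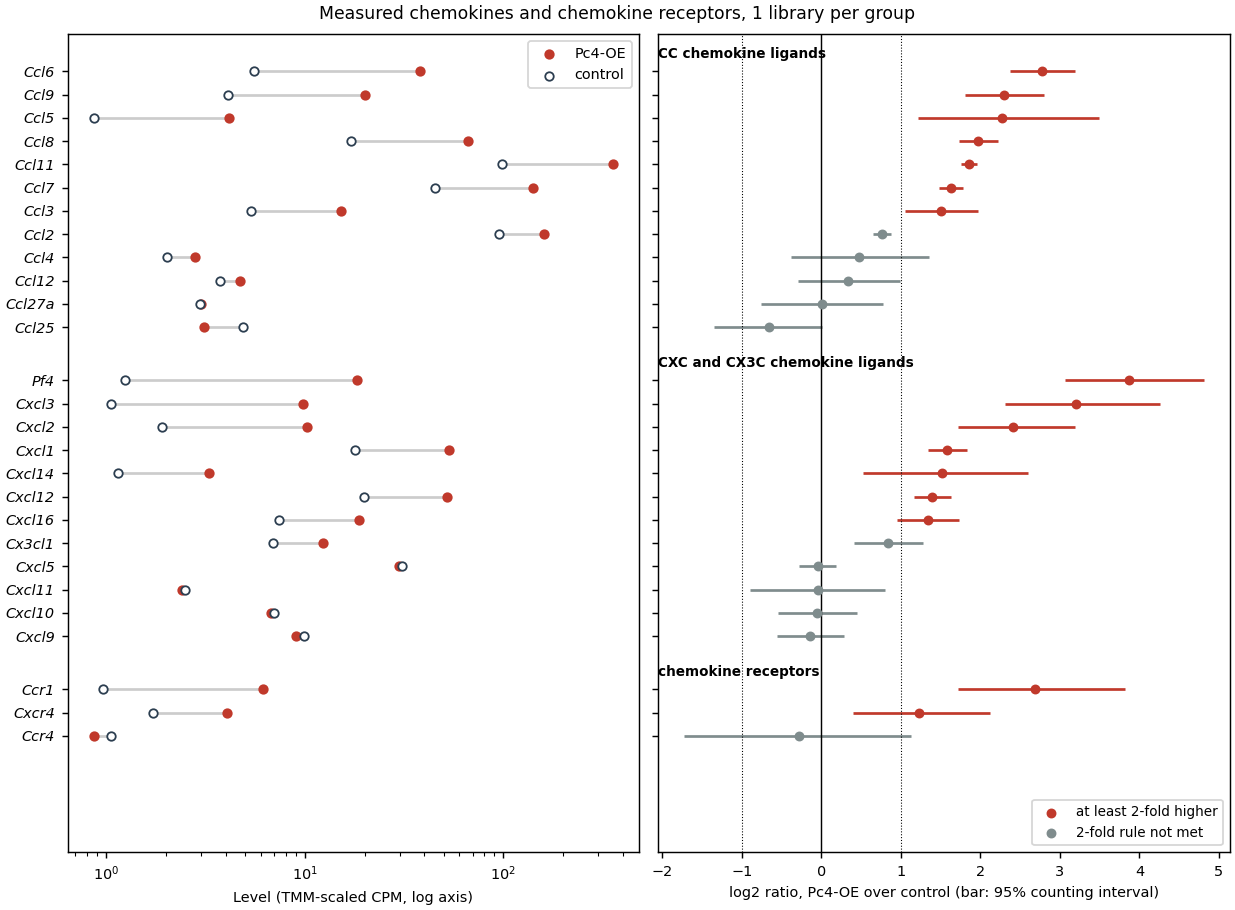
Level in each library (left, TMM-scaled CPM on a log axis) and log2 ratio with its 95% counting interval (right) for the 27 measured chemokines and chemokine receptors, sorted by ratio within each role. Dotted lines mark a 2-fold difference. Pf4 has the highest ratio at 14.6-fold, while Cxcl5, Cxcl9, Cxcl10 and Cxcl11 lie at a log2 ratio between -0.14 and -0.05.

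The DNA just before the transcription starts of Cxcl1, Cxcl2 and Cxcl3 is shown because these neighbours differed together, and that of Cxcl10 because it did not. Each line is the 160 bases that end at the base before the RefSeq start (GRCm38.p6), 5′ to 3′ on the strand of the gene, and capitals mark the kB word, GGG then any 3 letters then TTCC, a form of the site that NF-kB dimers are known to bind, read on either strand.
Cxcl1 (chr5:90891085-90891244, plus strand): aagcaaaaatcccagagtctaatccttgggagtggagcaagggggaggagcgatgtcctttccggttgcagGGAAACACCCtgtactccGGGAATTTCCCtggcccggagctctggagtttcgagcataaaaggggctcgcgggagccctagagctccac
Cxcl2 (chr5:90903739-90903898, plus strand): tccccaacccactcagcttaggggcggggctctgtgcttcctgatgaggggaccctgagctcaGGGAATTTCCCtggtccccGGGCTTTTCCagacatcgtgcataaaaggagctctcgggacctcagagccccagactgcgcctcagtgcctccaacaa
Cxcl3 (chr5:90785941-90786100, plus strand): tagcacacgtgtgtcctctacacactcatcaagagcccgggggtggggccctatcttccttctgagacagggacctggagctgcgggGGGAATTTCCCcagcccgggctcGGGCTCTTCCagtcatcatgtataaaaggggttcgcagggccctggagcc
Cxcl10 (chr5:92348890-92349049, minus strand): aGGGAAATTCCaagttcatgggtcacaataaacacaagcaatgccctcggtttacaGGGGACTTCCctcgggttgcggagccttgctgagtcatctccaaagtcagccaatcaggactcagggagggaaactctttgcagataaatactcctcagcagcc

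All 4 stretches hold 2 separate places with a kB word. Cxcl1, Cxcl2 and Cxcl3 met the rule and Cxcl10 did not. Pf4, which is in the same run as Cxcl1, Cxcl2 and Cxcl3 and was 14.6-fold higher, is not shown. It had no kB word in the 250 bases before its start. Neither had Cxcl9, which is in the same run as Cxcl10 and did not meet the rule. Whether the word bears on the ratios was not tested. In Cxcl1, Cxcl2 and Cxcl3 one place matches the word on both strands, starting 71, 97 and 73 bases before the start. Of the 63 measured members 46 had a RefSeq promoter in the table used, and Cxcl5 was not among them. Over the 250 bases before the start, the kB word was in 6 of 33 promoters of 26 higher members (18.2%), in 3 of 23 promoters of 19 members that met the rule in neither direction (13.0%), and in 4.65% of all 32851 promoters. The higher members with the word were Ccl9, Cxcl1, Cxcl2, Cxcl3, Il1r1 and Il1rn, and those meeting the rule in neither direction were Cxcl10, Il17rc and Il6. An interferon-response word, GAAA then any 2 letters then GAAA, was in 1 of 33 promoters of higher members and in 1 of 23 of the others, that of Cxcl10, and in 2.98% of all. The STAT word TTCNNNGAA was in 3 of 33 promoters of higher members, in 1 of 23 of the others and in 7.02% of all, again on both strands. A word match is a description of these letters and not a bound site.

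**Figure D3:**
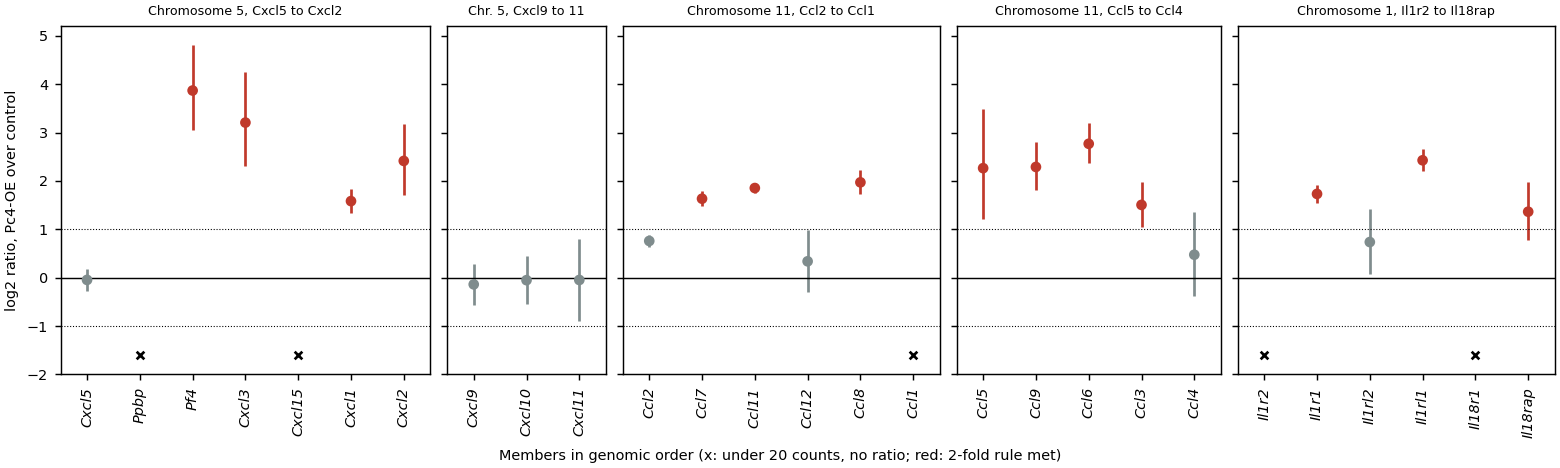
Log2 ratios of Pc4-OE over control with 95% counting intervals for members in genomic order within 5 runs of neighbouring genes on chromosomes 5, 11 and 1; crosses mark members with under 20 counts, and dotted lines mark a 2-fold difference. Cxcl5, Ccl2, Ccl12, Ccl4 and Il1rl2 lie below neighbours that met the rule, and none of Cxcl9, Cxcl10 and Cxcl11 met it.

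Chemokine receptors were far lower than their ligands. Of 18 listed only 3 were measured, with summed levels of 11.1 CPM in Pc4-OE and 3.75 CPM in control, against 1042 and 393 CPM for the 24 measured chemokine ligands. Ccr1, a myeloid receptor for Ccl3, Ccl5, Ccl6, Ccl7 and Ccl9, had 64 counts (6.18 CPM) in Pc4-OE and 10 counts (0.960 CPM) in control, 6.44-fold higher (3.28 to 14.1). Cxcr4, the receptor for Cxcl12, had 42 counts (4.06 CPM) in Pc4-OE and 18 counts (1.73 CPM) in control, 2.35-fold higher (1.32 to 4.33). Ccr4, a T cell receptor, had 9 and 11 counts, a log2 ratio of -0.28 (-1.73 to 1.13).

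Receptors for several of the abundant ligands had no counts. Ccr2, the receptor for Ccl2, Cxcr2, the receptor for Cxcl1, Cxcl2, Cxcl3 and Cxcl5, and Cxcr3, the receptor for Cxcl9, Cxcl10 and Cxcl11, were at 0 in both libraries. A count of 0 allows up to 3 counts, or 0.290 CPM in Pc4-OE and 0.288 CPM in control. Ccr3, the eotaxin receptor, had 10 counts in Pc4-OE and 4 in control. Cxcr6, which binds Cxcl16, had 7 and 5 counts, and Cx3cr1, which binds Cx3cl1, had 2 in each.

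Atypical chemokine receptors, related receptors and an enzyme that trims chemokines were taken as a separate list of 8 genes, 4 of them measured. Ackr3, the scavenger receptor for Cxcl12, had 250 counts in Pc4-OE and 103 in control, 2.44-fold higher (1.93 to 3.10). Ccrl2 had 30 and 7 counts, 4.31-fold higher (1.86 to 11.6). Dpp4, a peptidase that inactivates Cxcl12 and other chemokines, had 104 counts in Pc4-OE and 638 in control, 6.10-fold lower (4.95 to 7.58). The median of the list was 0.23. Of 17 genes that carry or restrain the signal inside the cell, 5 met the rule upward, beside 11.8% of all genes. Downward it was met by 1, beside 4.02% of all genes, and the median was 0.19. The higher ones were Rgs1 (6.54-fold), Pik3cg (3.80-fold), Rgs2 (3.64-fold), Pik3r5 (3.41-fold) and Rgs16 (3.13-fold), regulators of G proteins or parts of a phosphoinositide kinase. Rgs1 (65 counts in Pc4-OE and 10 in control) and Pik3cg (34 and 9) had 20 to 99 counts summed, where 22.4% of all genes were higher. Elmo1, which acts in Rac activation, was 2.25-fold lower.

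The IL-1 family had the largest share of higher genes among the groups with at least 5 measured members. The files list 21 of them, and 10 were measured. The rule was met upward by 8 of these, beside 11.8% of all genes, and downward by 0, beside 4.02%. The median log2 ratio of the family was 1.90. IL-1 alpha and IL-1 beta, the inflammatory ligands, differed alike. Il1a had 118 counts (11.4 CPM) in Pc4-OE and 17 counts (1.63 CPM) in control, 6.98-fold higher (4.18 to 12.4). Il1b had 60 counts (5.80 CPM) in Pc4-OE and 9 counts (0.864 CPM) in control, 6.71-fold higher (3.31 to 15.4). Their antagonist Il1rn, which blocks the receptor, had 310 counts (30.0 CPM) in Pc4-OE and 58 counts (5.57 CPM) in control, 5.38-fold higher (4.05 to 7.25). The antisense transcript Il1bos had 1 count in Pc4-OE and 0 in control.

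Among the receptor chains of the family, Il1r1, Il1rl1, Il1rap and Il18rap met the rule upward, Il1rl2 did not meet it, and the decoy receptor Il1r2, with 9 counts in Pc4-OE and 6 in control, and Il18r1 were not measured. Il1r1, the signalling receptor of IL-1, had 1070 counts (103 CPM) in Pc4-OE and 324 counts (31.1 CPM) in control, 3.32-fold higher (2.93 to 3.77). Il1rl1, or ST2, the receptor of IL-33, had 1032 counts (99.7 CPM) in Pc4-OE and 193 counts (18.5 CPM) in control, 5.38-fold higher (4.61 to 6.31). Il1rap, the accessory chain that both need, had 546 counts (52.8 CPM) in Pc4-OE and 143 counts (13.7 CPM) in control, 3.84-fold higher (3.19 to 4.65). Il33, a nuclear alarmin released from damaged cells and the ligand of ST2, had 848 counts (81.9 CPM) in Pc4-OE and 234 counts (22.5 CPM) in control, 3.65-fold higher (3.15 to 4.23). The genes for the ligand, receptor and accessory chain of IL-33 were thus all higher in the same library. Bulk counts per gene do not show whether the same cells made them, or in which transcript form.

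The IL-18 arm was sparse. Il18rap, the accessory chain of the IL-18 receptor, had 87 counts in Pc4-OE and 34 in control, 2.57-fold higher (1.71 to 3.95), but the binding chain Il18r1 had 1 count in each and the ligand Il18 had 7 and 6. Il18bp, the decoy that binds IL-18, had 38 and 43 counts, a log2 ratio of -0.17 (-0.84 to 0.49). Il1rl2, the receptor of the IL-36 ligands, had 53 and 32 counts, a log2 ratio of 0.74 (0.08 to 1.42), while the IL-36 genes, listed as Il1f6, Il1f8 and Il1f9, held 0, 0 and 2 counts in Pc4-OE and 0 in control. Il1r1, Il1rl1 and Il18rap stand in 1 run on chromosome 1 at 40084692 to 40551707, where the median log2 ratio of all genes on the chromosome was 0.10.

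**Figure D4:**
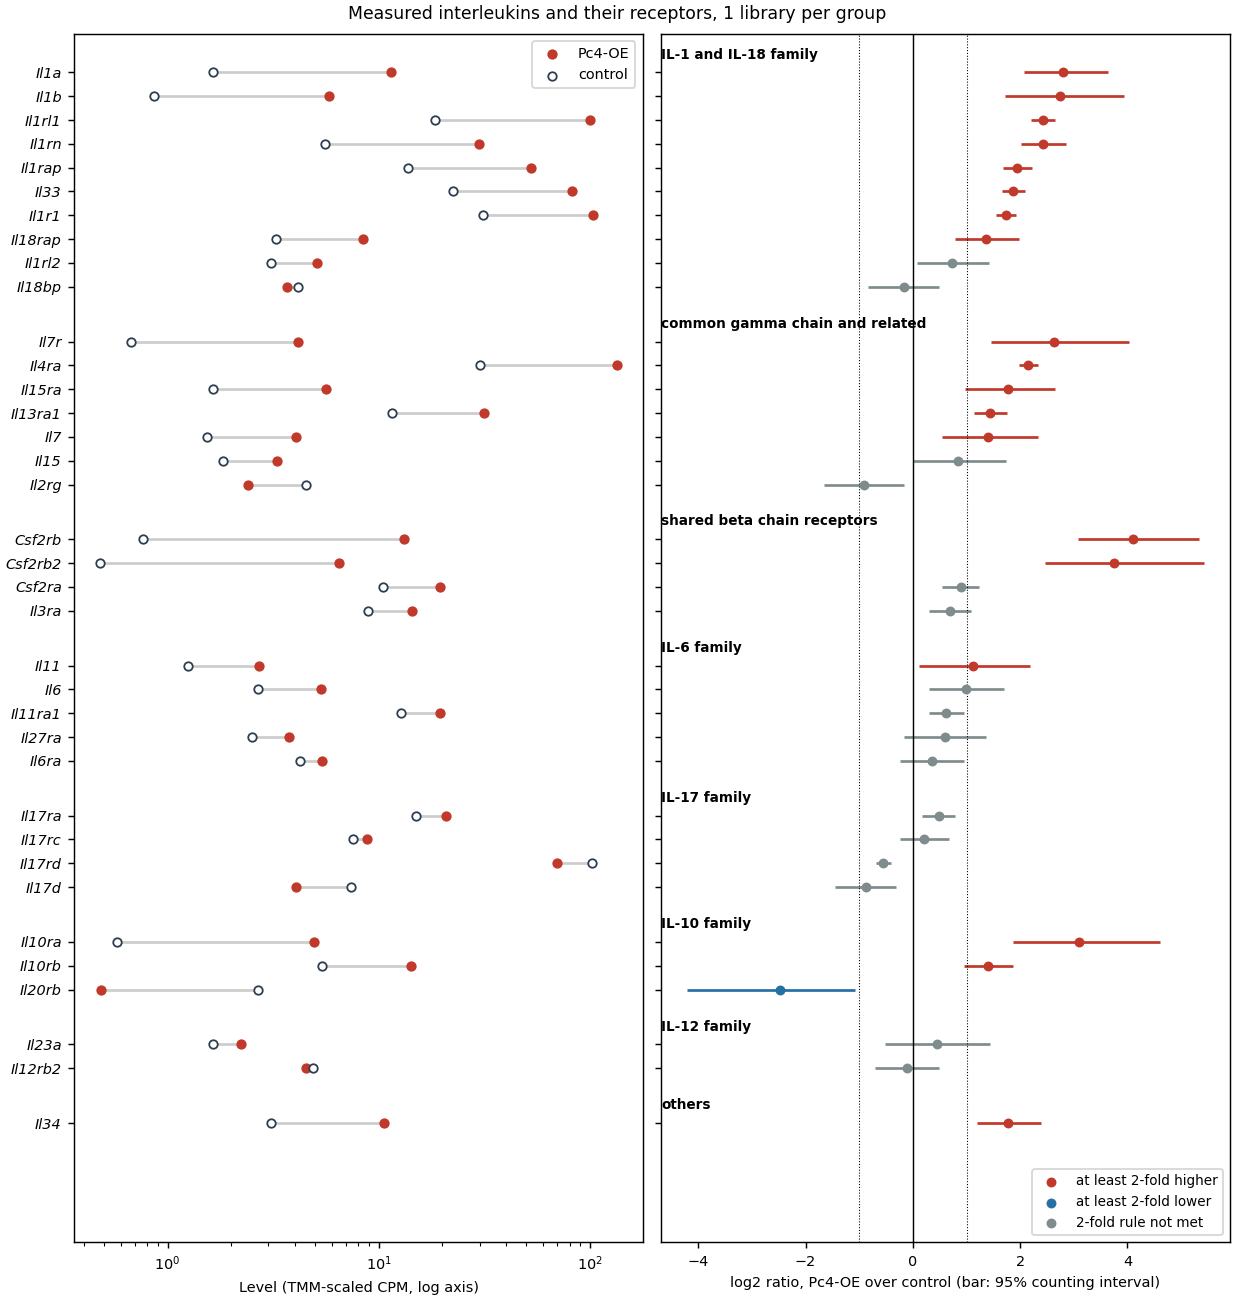
Level in each library (left, TMM-scaled CPM on a log axis) and log2 ratio with its 95% counting interval (right) for the 36 measured interleukins, interleukin receptors and CSF2 receptor chains, grouped by family. In the IL-1 and IL-18 group 8 of 10 genes met the 2-fold rule, Csf2rb has the highest ratio at 17.1-fold, none of the IL-17 family met the rule, and Il20rb is the only gene at least 2-fold lower.

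Genes of the common gamma chain group and their relatives included the most abundant interleukin receptor by CPM in the Pc4-OE-labelled library. Of 7 measured, 5 met the rule upward, beside 11.8% of all genes, and 0 downward, beside 4.02%. The median log2 ratio was 1.45. Il4ra, the chain shared by the IL-4 and IL-13 receptors, had 1386 counts (134 CPM) in Pc4-OE and 314 counts (30.2 CPM) in control, 4.44-fold higher (3.93 to 5.04). Il13ra1, its partner in the type II receptor, had 325 counts (31.4 CPM) in Pc4-OE and 120 counts (11.5 CPM) in control, a log2 ratio of 1.45 (1.14 to 1.76). Their ligands were almost without counts, with Il4 at 0 in both libraries and Il13 at 1 count in Pc4-OE and 0 in control.

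Il2rg, the common gamma chain that pairs with Il4ra on blood cells, went the other way, with 25 counts (2.42 CPM) in Pc4-OE and 47 counts (4.51 CPM) in control. Its log2 ratio of -0.90 (-1.66 to -0.17) did not meet the rule. Il7r, a lymphoid receptor, had 43 counts in Pc4-OE and 7 in control, 6.18-fold higher (2.76 to 16.3), and its stromal ligand Il7 had 42 and 16, 2.64-fold higher (1.45 to 5.03). Il15ra, which presents IL-15 to other cells, had 58 counts in Pc4-OE and 17 in control, 3.43-fold higher (1.97 to 6.29). Il15 itself had 34 and 19 counts, a log2 ratio of 0.85 (0.00 to 1.74).

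The beta chains of the GM-CSF, IL-3 and IL-5 receptors had the widest differences of the family apart from Pf4. Csf2rb, the shared chain, had 136 counts (13.1 CPM) in Pc4-OE and 8 counts (0.768 CPM) in control, 17.1-fold higher (8.44 to 40.4). Csf2rb2, a chain of the mouse IL-3 receptor, had 67 counts (6.47 CPM) in Pc4-OE and 5 counts (0.480 CPM) in control, 13.5-fold higher (5.50 to 42.9). The 2 genes are neighbours on chromosome 15 with near-identical sequence (78282507 to 78351001), so their counts are uncertain and may share reads. The binding chains differed less. Csf2ra had 201 counts (19.4 CPM) in Pc4-OE and 109 counts (10.5 CPM) in control, a log2 ratio of 0.89 (0.55 to 1.24), and Il3ra had 149 and 93 counts, a log2 ratio of 0.69 (0.31 to 1.08). Both intervals lie below those of the beta chains. Among the ligands, Csf2, which the name rule leaves out, had 40 and 24 counts, Il3 had 1 and 0, and Il5 had 1 in each.

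Il34, which shares the receptor CSF1R with CSF1, had 109 counts (10.5 CPM) in Pc4-OE and 32 counts (3.07 CPM) in control, 3.43-fold higher (2.29 to 5.25). In the list of other haematopoietic cytokines, 3 of 10 measured genes met the rule upward, beside 11.8% of all genes. Downward it was met by 1, beside 4.02% of all genes, and the median was 0.36. Csf1 had 2460 counts in Pc4-OE and 658 in control, 3.76-fold higher (3.45 to 4.11), and Csf1r, also a macrophage marker, had 107 and 22 counts, 4.89-fold higher (3.07 to 8.13). Kitl was 10.2-fold higher and the erythropoietin receptor Epor was 2.26-fold lower.

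In the IL-10 family only receptor chains were measured. Il10ra, the IL-10 binding chain of blood cells, had 51 counts (4.93 CPM) in Pc4-OE and 6 counts (0.576 CPM) in control, 8.55-fold higher (3.67 to 24.4). Il10rb, the widely made partner chain, had 147 counts (14.2 CPM) in Pc4-OE and 56 counts (5.38 CPM) in control, 2.64-fold higher (1.93 to 3.66). Il20rb, an epithelial receptor chain for IL-19, IL-20 and IL-24, had 5 counts (0.483 CPM) in Pc4-OE and 28 counts (2.69 CPM) in control, 5.57-fold lower (2.12 to 18.5), on the fewest counts of any member that met the rule. Its ligands Il19, Il20 and Il24 were at 0 in both libraries, and Il10 had 4 counts in Pc4-OE and 1 in control.

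The IL-6 family differed less than the IL-1 family. All 5 measured genes had a ratio above 1, but only Il11, a fibroblast cytokine, met the rule, with 28 counts in Pc4-OE and 13 in control, 2.17-fold higher (1.09 to 4.56). With 0.5 CPM added to both values its ratio was 1.83 and the rule was not met. Il6 had 55 counts in Pc4-OE and 28 in control, 1.98-fold higher (1.23 to 3.24), and met the rule with library totals, at a ratio of 2.04. Il11ra1, the IL-11 receptor, which has near-identical copies, had 202 and 132 counts, a log2 ratio of 0.62 (0.30 to 0.95). Il27ra stood at 0.59 (-0.16 to 1.37) and Il6ra at 0.36 (-0.24 to 0.96). The median of the group was 0.62, and 11.8% of all genes met the rule upward.

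Partners of the IL-6 family that the name rule leaves out were compared as a list of 9 genes, with a median of 0.52. The 2-fold rule was met upward by 4, beside 11.8% of all genes, and downward by 2, beside 4.02%. The signal chain Il6st, or gp130, had 1814 counts in Pc4-OE and 1516 in control, a log2 ratio of 0.27. Osmr, the oncostatin M receptor, was 3.18-fold higher (2.77 to 3.65), with 872 and 276 counts, and its ligand Osm was 2.63-fold higher. Lifr, the LIF receptor through which stem cells are maintained, had 704 counts in Pc4-OE and 1699 in control, a log2 ratio of -1.26 (-1.39 to -1.13), and Cntfr was 3.10-fold lower. Clcf1, a cytokine of the same family, was 2.91-fold higher.

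None of the 4 measured genes of the IL-17 family met the rule, beside 11.8% of all genes upward and 4.02% downward. The median was -0.17. Il17rd, or Sef, a receptor relative that restrains FGF signalling, was the most abundant of them, with 719 counts (69.5 CPM) in Pc4-OE and 1059 counts (102 CPM) in control, a log2 ratio of -0.55 (-0.69 to -0.41). In the control-labelled library it had the highest CPM of any member, but per kilobase of exon it stood at 9.26, below Ccl2, Ccl11, Ccl7, Ccl8, Cxcl5 and Cxcl1. Il17d, a ligand, had 42 counts in Pc4-OE and 77 in control, a log2 ratio of -0.87 (-1.44 to -0.31). The receptor chains Il17ra and Il17rc had log2 ratios of 0.48 (0.17 to 0.78) and 0.21 (-0.24 to 0.67), and Il17a was at 0 in both libraries.

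In the list of genes that act in or after IL-17 receptor signalling, the median was 1.13. Of its 8 genes 0 met the rule downward, beside 4.02% of all genes, and 4 met it upward, beside 11.8%. They were Lcn2 (4.32-fold), an iron-binding defence protein, the factors Cebpd (3.96-fold) and Cebpb (3.18-fold), and Nfkbiz (3.03-fold), a nuclear cofactor of NF-kB. Of the IL-12 family, Il23a and Il12rb2 had log2 ratios of 0.44 (-0.52 to 1.44) and -0.11 (-0.71 to 0.49), and Il12a and Il12b were at 0 in both libraries.

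The shared signalling genes are given beside the shares of all genes that met the rule, 11.8% upward and 4.02% downward. Of 17 JAK, STAT and feedback genes, 0 met it upward and 1 downward, and the median log2 ratio was 0.19. Socs2, a feedback inhibitor, was 2.29-fold lower (1.99 to 2.65), with 281 counts in Pc4-OE and 648 in control. Of 24 genes of the IL-1 receptor, Toll-like receptor and NF-kB path, only Nfkbiz and Tnfaip3 (2.52-fold) were higher, a share of 8.33%. Of the same list 0 were lower, and the median was 0.05. In the list of TNF and interferon ligands and receptors the 8 measured genes are all receptors, since no ligand reached 20 counts. Of these 8, 5 met the rule upward and 0 downward, and the median was 1.15. The 5 were Ifngr2 (2.90-fold), Ifngr1 (2.74-fold), Ifnar2 (2.46-fold), Tnfrsf1a (2.22-fold) and Ltbr (2.22-fold).

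Both classes of member were higher in most cases. The rule was met upward by 20 and downward by 0 of 34 measured ligands, whose median log2 ratio was 1.40. It was met upward by 14 and downward by 1 of 27 measured receptors, whose median was 1.23. Over all genes measured, the rule was met upward by 11.8% and downward by 4.02%. Of the 2 antagonists, Il1rn met it and Il18bp did not. Among the 80 members that were not measured, 36 were at 0 in both libraries, 30 had 1 to 9 counts summed and 14 had 10 to 19. These 80 held 171 counts in Pc4-OE and 115 in control. Of them, 11 had counts only in Pc4-OE and 2 only in control.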

How the data were processed

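The deposited values are read counts, whole numbers for each gene in each library, made by the authors with STAR 2.4.1c and featureCounts on mm10, per the submitters' processing notes. The kit marks strand, per the labels' protocols. The gene annotation, the strand setting and how multi-hit reads were treated are not stated there, so overlapping, antisense and near-identical genes may share or lose reads. No other per-sample columns were present.

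Counts were scaled over the whole table by TMM (edgeR 4.0.16, R 4.3.3). The ratio is Pc4-OE over control with no pseudocount, for genes with at least 20 counts summed, with a 95% Clopper-Pearson interval (SciPy 1.17.1). Reads are not independent molecules, so intervals and floors cover counting error only. A gene with equal counts has a ratio known to within 0.374 to 2.68 at 20 summed counts, 0.662 to 1.51 at 100 and 0.882 to 1.13 at 1000. Calls were tested on simulated counts. Alternatives used library totals, DESeq2 1.42.0 size factors, a pseudocount, other minimums and other call rules.

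Members are named with values where they met the 2-fold rule or had a mean of at least 5 CPM; the rest of those named illustrate a role or a receptor and were chosen after their values were seen. The members and lists were chosen with earlier results of these data known. Positions and promoters are RefSeq's (GRCm38.p6); exon lengths are merged GENCODE M21 basic exons, found for 62 of 63 measured members. A run holds at least 3 members with gaps of at most 500 kb.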

Additional observations from a re-analysis of the deposited data

How the results depend on the processing

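The count of 35 members at least 2-fold higher (of 63, beside 11.8% of all genes) became 36 with library totals (12.5%), 35 with DESeq2 size factors (11.7%) and 34 with 0.5 CPM added (10.6%). It was 37 of 107 with a minimum of 1 count (9.84%), 33 of 58 with 50 (10.7%) and 24 of 37 with 100 (9.41%). It was 35 for a ratio of 2 without the interval (12.3%), 42 for a ratio of 1.5 (18.8%), and 32 of 57 without genes that have near-identical copies (11.8%). When each interval also allowed for a biological coefficient of variation, assumed to be 0.4, it was 23 of 63, beside 4.2% of all genes. The count of 1 lower member was 2 with a minimum of 1 count, 0 with 50 and 0 with 100 (Il20rb has 33 counts in all, so those minimums leave it out), and 3 for a ratio of 1.5, beside 13.2% of all genes. The median log2 ratio stayed between 0.84, with a minimum of 1 count, and 1.51, with 100. With a minimum of 1 count that median leaves out the members with 0 in 1 library, which have no finite log2 ratio. Of these, 11 had counts only in Pc4-OE and 2 only in control. The scalings moved the median of all genes to between -0.02 and 0.03, and the calls of Il6 (library totals) and of Il11 (0.5 CPM added) changed. The log2 ratios of 48 named members stayed within their counting intervals under both other scalings and the added 0.5 CPM. No replicate could be left out, and no paired analysis was possible because each group has 1 library.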
